A study of Solanum lycopersicum with 8 samples.

Results

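SELF PRUNING (SP) and 4 relatives, SINGLE FLOWER TRUSS (SFT), SP5G, SP9D and SP6A, are tomato genes of the florigen family. They were taken by identifier, as Solyc06g074350, Solyc03g063100, Solyc05g053850, Solyc09g009560 and Solyc05g055660, and all 5 were among the 34722 genes of the deposited table. The RNA came from the meristem at the shoot tip, where new leaves and later flowers arise, of wild-type tomato (WT) and of the late termination (ltm) mutant. The seedlings were fixed in acetone before the meristems were dissected, and the samples were taken at 4 leaves and at 6 leaves. This gave 4 groups, WT 4 leaves, WT 6 leaves, ltm 4 leaves and ltm 6 leaves, with 2 libraries each, labelled A and B. Which gene carries the ltm mutation is not stated in the labels, so no check of it was made. Per the series' design, WT at the floral transition was compared with vegetative WT, and the mutant with WT at the same vegetative stage. The sample titles give leaf number only. At 6 leaves the genotypes are thus matched by leaf count, and genotype and developmental stage cannot be told apart there. The labels do not say whether A and B came from separate plants, so a p-value here speaks only of library spread and that spread may be technical.

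The family is known as CETS, after CENTRORADIALIS, TERMINAL FLOWER 1 and SELF PRUNING, and encodes small proteins related to phosphatidylethanolamine-binding proteins. In tomato, SFT encodes the mobile flowering signal florigen: its protein is made in leaves, travels through the phloem and acts in the meristem together with 14-3-3 proteins and the bZIP factor SPGB. SP is the counterpart of TERMINAL FLOWER 1. It opposes florigen and keeps the shoots of the vine in a vegetative state, and its loss gives the determinate growth of field tomatoes.

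Of the 5 members, 2 had any read and 3 had none. The libraries held between 17895357 and 21987881 reads assigned to genes. Values are normalized read counts, that is, reads divided by the library's size factor, and each whole read behind them could be recovered, so that 1 read was worth about 1 unit. SP was the 1 member that passed the filter on low values (2 or more libraries with a value of 10 or higher), with 85 reads in all. SFT had 9 reads. SP5G, SP9D and SP6A had 0 reads in each of the 8 libraries, as did 27.7% of all genes in the table. The 4 leaves B libraries of both genotypes stood apart from the rest: on the first principal component, with 35.4% of the variance, they lay at 46.4 in WT and 44.2 in ltm, and the other 6 libraries between -38.9 and 5.57. The SP results that rest on them are given with and without them.

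The repressor SP was most abundant in ltm meristems at 4 leaves. In WT at 4 leaves its value was 0.914 in library A, which is 1 read, and 0 in library B. In ltm at 4 leaves it was 21.3 in A and 39.3 in B, from 21 and 39 reads. Both ltm libraries were thus above both WT libraries, with no overlap, as held in this direction for 12% of all tested genes. In WT at 6 leaves SP stood at 7.97 in A, from 8 reads, and at 0 in B. In ltm at 6 leaves it stood at 10.4 in A and 5.0 in B, from 11 and 5 reads. At 6 leaves the genotypes overlapped, since WT A lay between the ltm libraries. Of the 85 SP reads, 76 were in ltm libraries and 9 in WT libraries.

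**Figure D1:**
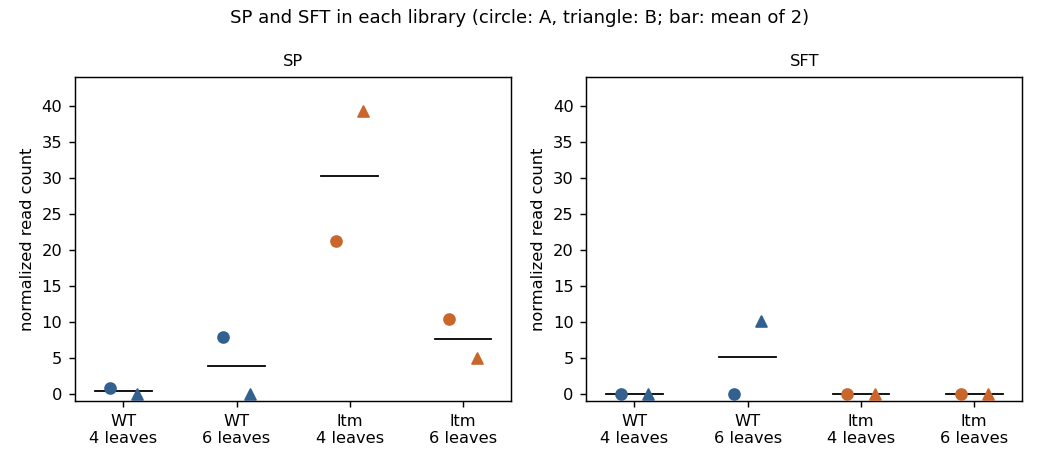
Normalized read count (y axis) of SP and SFT in the 4 groups (x axis); circles are A libraries, triangles B libraries, and the bar is the mean of 2. SP is highest in the ltm 4 leaves libraries, at 21.3 and 39.3, and SFT is above 0 in WT 6 leaves B alone, at 10.2.

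By group mean, the order of SP levels was ltm 4 leaves (30.3 ± 12.7, SD, n = 2), ltm 6 leaves (7.70 ± 3.83), WT 6 leaves (3.98 ± 5.63) and WT 4 leaves (0.457 ± 0.646). The neighbours ltm 4 leaves and ltm 6 leaves did not overlap. The neighbours ltm 6 leaves and WT 6 leaves, and the neighbours WT 6 leaves and WT 4 leaves, did not differ beyond their spread. A count of 0 in 1 library still allows 3 reads, a value of 3.13 in WT 4 leaves B and of 3.4 in WT 6 leaves B. Each of these levels rests on few reads.

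Counting alone gives the following precision (95% exact intervals from Clopper-Pearson limits, which cover counting error only and not the spread between libraries). At 4 leaves, 60 reads in ltm against 1 in WT were a ratio of 62.2 with an interval of 10.8 to 2499, and without WT 4 leaves A, which held that 1 read, SP was at least 9.69-fold higher in ltm against a floor of 3 reads. With both 4 leaves B libraries left out it was 23.3 with an interval of 3.75 to 965. At 6 leaves, 16 reads in ltm against 8 in WT were a ratio of 1.83 with an interval of 0.741 to 4.95, so counting error spanned equal levels. Without WT 6 leaves B this ratio was 0.976. From 4 to 6 leaves in ltm, SP went from 60 to 16 reads, a ratio of 0.256 with an interval of 0.138 to 0.451, and the groups did not overlap, as held in this direction for 14.1% of tested genes. On the ltm 4 leaves A library alone that ratio was 0.365 with an interval of 0.178 to 0.734. From 4 to 6 leaves in WT it went from 1 to 8 reads, a ratio of 8.70 with an interval of 1.17 to 386, and all 8 reads lay in library A. On the WT 4 leaves A library alone it was 4.64 with an interval of 0.622 to 206. Over both stages, 76 reads in ltm against 9 in WT were a ratio of 8.24 with an interval of 4.12 to 18.7, which was 55.3 with an interval of 9.63 to 2212 without WT 6 leaves A, and 4.03 with an interval of 1.91 to 9.49 when the 4 leaves B libraries were left out.

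Between libraries of 1 group SP varied more than its reads alone would give in 2 of the 4 groups. In WT at 6 leaves, 100% of the 8 reads were in A, with an exact 95% interval of 63.1% to 100%, where depth alone would put 53.2%. In ltm at 4 leaves 65.0% of the 60 reads were in B, with an interval of 51.6% to 76.9%, where depth would put 50.2%. In ltm at 6 leaves 31.2% of the 16 reads were in B, with an interval of 11% to 58.7% that spans the 48.6% given by depth.

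In the fit across all 19186 tested genes (limma on log2(value + 1), Benjamini-Hochberg adjustment), SP was not called in any comparison. For ltm against WT at 4 leaves its log2 fold change was 4.44 ± 1.07 (SE), with an unadjusted p of 0.00309 and an adjusted p of 1.0 in limma, beside 0.00521% of all tested genes called and 1.59% higher at an unadjusted p under 0.05. SP passed the filter only through ltm libraries, at 21.3, 39.3 and 10.4, with no WT library at 10 or higher, so a difference between the genotypes was built into its being tested. The log2(value + 1) scale understates the change of low genes, and DESeq2 put it at 5.97 with an adjusted p of 0.353, where it called 0.099% of tested genes. Without both 4 leaves B libraries, which leaves 1 library per genotype at that stage and assumes that it varies like the other groups, the log2 fold change was 3.54, with an unadjusted p of 0.0581 and an adjusted p of 0.605 in limma.

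For ltm against WT as the mean of both stages, the log2 fold change of SP was 2.95 ± 0.753, with an unadjusted p of 0.00436 and an adjusted p of 0.347 in limma, where 0.0417% of tested genes were called. Without both 4 leaves B libraries it was 2.50, with an adjusted p of 0.334 in limma. An exact permutation of the genotype labels within each stage, two-sided and over 36 arrangements, gave p = 0.111. Since 0.0556 is the smallest p that this test can give, and 0.333 the smallest for 2 libraries against 2, no such test could pass 0.05 in this design. At 6 leaves alone the log2 fold change was 1.47 ± 1.07, with an adjusted p of 0.841 in limma (0.00521% of tested genes called), and without WT 6 leaves B it was -0.12.

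The stage changes of SP had opposite signs in the genotypes. From 4 to 6 leaves it was 1.11 ± 1.07 in WT (adjusted p = 0.795 in limma) and -1.86 ± 1.07 in ltm (adjusted p = 1.0), and 0% of tested genes were called in either. The difference of the stage changes was -2.97 ± 1.51, with an unadjusted p of 0.0837 and an adjusted p of 1.0 in limma (0% called), and it was -4.76 in edgeR and -5.04 in DESeq2, with adjusted p-values that round to 1.0 in both. The WT change turned to -0.47 without WT 6 leaves A and went to 2.70 without WT 6 leaves B. With the 4 leaves B libraries of both genotypes left out, the changes were 0.65 in WT and -1.43 in ltm, and their difference was -2.08 ± 1.92. As a mean of both genotypes the stage change was -0.37 ± 0.753 in limma (0% called), and it was 0.43 in edgeR and 0.55 in DESeq2, so its direction depended on the tool.

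**Figure D2:**
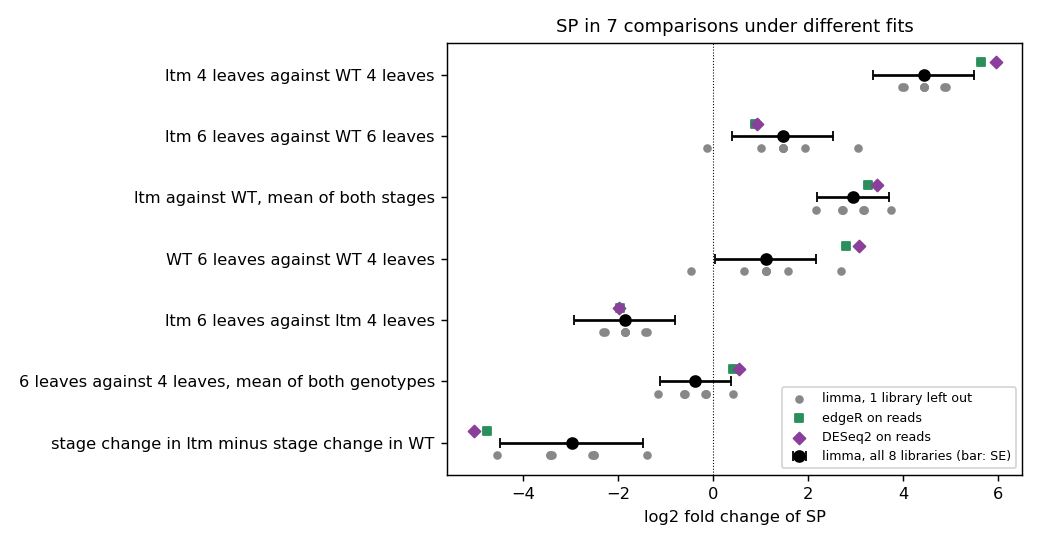
Log2 fold change of SP (x axis) in 7 comparisons (y axis). Black circles with SE bars are limma on all 8 libraries, grey dots limma with 1 library left out, green squares edgeR and purple diamonds DESeq2 on the recovered reads; ltm against WT at 4 leaves lies to the right of 0 in each of them, from 3.97 to 5.97.

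The florigen gene SFT had reads in 1 library. Its value was 10.2 in WT 6 leaves B, from 9 reads, and 0 in WT 6 leaves A, in both WT 4 leaves libraries and in all 4 ltm libraries. With all 9 reads in B, the exact 95% interval for the share of B was 66.4% to 100%, where depth would put 46.8%. Over the group SFT was at least 3.26-fold higher in WT at 6 leaves than in WT at 4 leaves, and at least 3.27-fold higher than in ltm at 6 leaves, against a floor of 3 reads over the group. Both bounds come from that 1 library, and without it SFT had 0 reads in every library, so no fold is left. At this depth a value of up to about 3 units in a library cannot be told from 0 for SFT.

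Within WT at 6 leaves the antagonists SP and SFT were found in different libraries, SP in A alone and SFT in B alone. The same libraries differed in other genes too. MBP20, a FRUITFULL-like MADS-box gene, stood at 71.7 in A and 108.7 in B, and FUL2, another one, at 198.2 and 387.3. S, a homeobox gene whose loss branches the tomato inflorescence, stood at 59.7 and 181.2. These 3 were picked after their values were seen. Of all 9 tested targets, which were listed with earlier results of these data known, 9 were higher in B than in A. This held for 49.2% of all tested genes. The median log2 difference of the targets was 0.27, and FUL1 was nearly equal at 134.4 and 141.6. Nor was the difference limited to the targets. The 4 meristem markers described below summed to 6927 in A and 8891 in B, and the 3 boundary genes to 4373 and 5041. The 15 green-tissue genes summed to 18456 in A and 17051 in B. The part of the targets in the SP and SFT values was not tested.

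The remaining 3 members were without a read. SP5G, a repressor of flowering that in tomato leaves and cotyledons responds to day length, SP9D, a relative of SP, and SP6A, whose potato counterpart is a mobile tuber signal, had 0 reads among the 161098589 reads of the 8 libraries, which allows each of them at most 3 reads over the series. In a single library the 3 reads that a count of 0 allows were a value of 2.74 in WT 4 leaves A, the deepest, and of 3.4 in WT 6 leaves B, the shallowest. Their absence from the counts holds for both genotypes and both stages, so these data give no comparison for them.

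**Figure D3:**
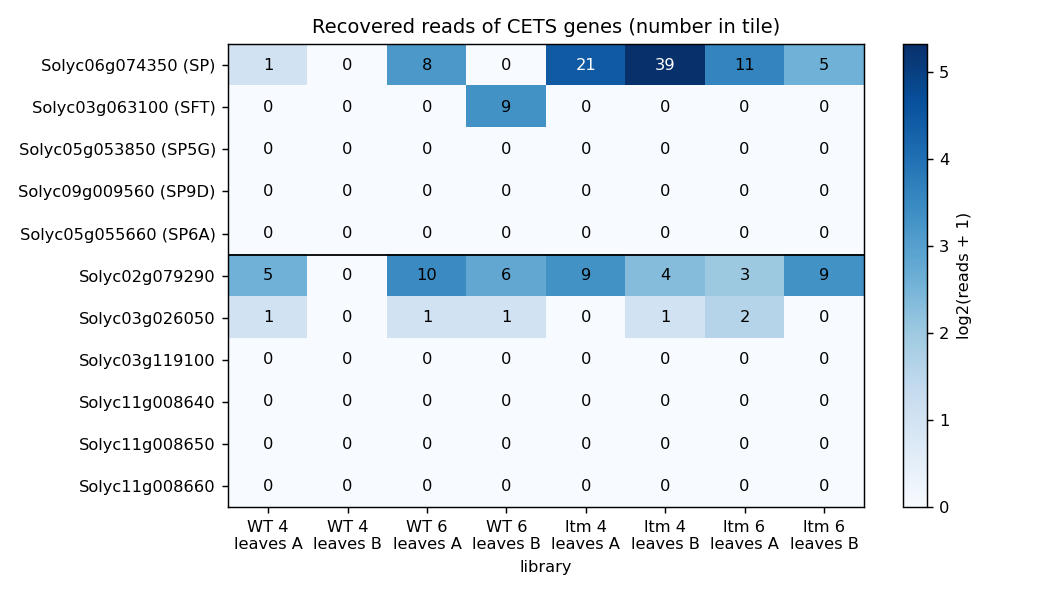
Recovered reads of 11 CETS genes (rows) in the 8 libraries (columns), with the number in each tile and the shade on a log2(reads + 1) scale; the line separates the 5 members from 6 further genes. SP holds 85 of the 146 reads, and WT 4 leaves B has 0 reads in all 11 genes.

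The list of 6 further CETS genes, given by identifier, was also sparse: 2 had reads, 4 had none, and 0 passed the filter. Solyc02g079290 had 46 reads in 7 libraries, with values between 2.84 and 9.96 outside WT 4 leaves B, where it was at 0. Its reads were 5 in WT and 13 in ltm at 4 leaves, and 16 in WT and 12 in ltm at 6 leaves. Over both stages its 25 reads in ltm against 21 in WT were a ratio of 1.16 with an interval of 0.625 to 2.18, where SP had 4.12 to 18.7. Solyc03g026050 had 6 reads in 5 libraries. The 4 at 0 were Solyc03g119100, Solyc11g008640, Solyc11g008650 and Solyc11g008660. Together the 11 CETS genes had 146 reads, 85 of them from SP.

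The genes next to SP by identifier had few reads. The library kit named in the labels, TruSeq RNA V2, does not mark strand, so that strand could not separate reads of overlapping genes. Whether reads of a neighbour were counted for SP or SFT was not tested. The next identifiers in the table, Solyc06g074340 and Solyc06g074360, had 0 reads and 1 read over all 8 libraries. Next to SFT, Solyc03g063090 lay between 19.3 and 54.3 and Solyc03g063110 between 1052 and 1209 in all libraries, including the 7 in which SFT was at 0.

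The 3 genes most like SP over the 8 libraries, by Pearson correlation of log2(value + 1) and as a description, were Solyc08g023270 (r = 0.98), Solyc01g107900 (r = 0.98) and Solyc07g016180 (r = 0.95). Of 19185 tested genes 9 had r over 0.9. Solyc01g107900 stood at 19.2 and 15.7 in WT at 4 leaves, 29.9 and 13.6 in WT at 6 leaves, 37.6 and 45.3 in ltm at 4 leaves, and 33.1 and 33.0 in ltm at 6 leaves (A and B). Picked for its likeness to SP, it shared with SP the higher value in WT 6 leaves A than in B. It also shared the maximum in ltm 4 leaves B, over a far smaller range.

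Markers of other cell types were set beside SP, since in bulk tissue fewer cells of a type and less RNA per cell cannot be told apart. All 4 meristem markers, TKN2, TKN1, WUS and CLV3, had reads in every library. TKN1, a KNOTTED-like homeobox gene of the meristem, was the 1 marker called by limma, for ltm against WT as a mean of both stages (0.96 ± 0.105, adjusted p = 0.0360). It stood at 3050 and 2424 at 4 leaves and 3320 and 2929 at 6 leaves in ltm (A and B), above the WT libraries at 1583 and 1299 and at 1580 and 1532. The meristem markers did not move together. As a mean of both stages CLV3 was lower in ltm (-0.56 ± 0.285), and TKN2 (0.17 ± 0.134) and WUS (0.16 ± 0.157) changed little. The sucrose transporter gene SUT1, the 1 phloem gene listed, was higher in all 4 ltm libraries, at 461 and 467 at 4 leaves and 420 and 483 at 6 leaves (A and B), than in the WT libraries, at 299 and 260 and at 237 and 268. For TKN1 and SUT1 the genotypes thus did not overlap, as held in this direction for 3.55% of tested genes. The log2 fold change of SUT1 as a mean of both stages was 0.78 ± 0.102 (adjusted p = 0.0957 in limma and 4.61e-05 in DESeq2). The boundary genes LS, BL and GOB summed to 4939 to 5647 in ltm and 3730 to 4392 in WT at 4 leaves, and to 6018 to 6247 and 4373 to 5041 at 6 leaves. GOB made up most of these sums, at 4151 to 5086 in ltm and 3050 to 3928 in WT (0.44 ± 0.0904 as a mean of both stages, adjusted p = 0.239 in limma), and LS (0.24 ± 0.135) and BL (0.05 ± 0.0938) overlapped between the genotypes at 4 leaves.

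Of 15 green-tissue genes (chlorophyll-binding proteins and the Rubisco small subunit), none was at 0 in any library. Their sum was 29670 in ltm 4 leaves B, the library with the highest SP value, and 15805 in ltm 4 leaves A, where SP was also above both WT libraries. In WT at 4 leaves the sum was 20660 to 22860 with SP at 0.914 and 0. The range was 15555 to 16060 in ltm and 17051 to 18456 in WT at 6 leaves. The part of these cell types in the SP difference was not tested.

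**Figure D4:**
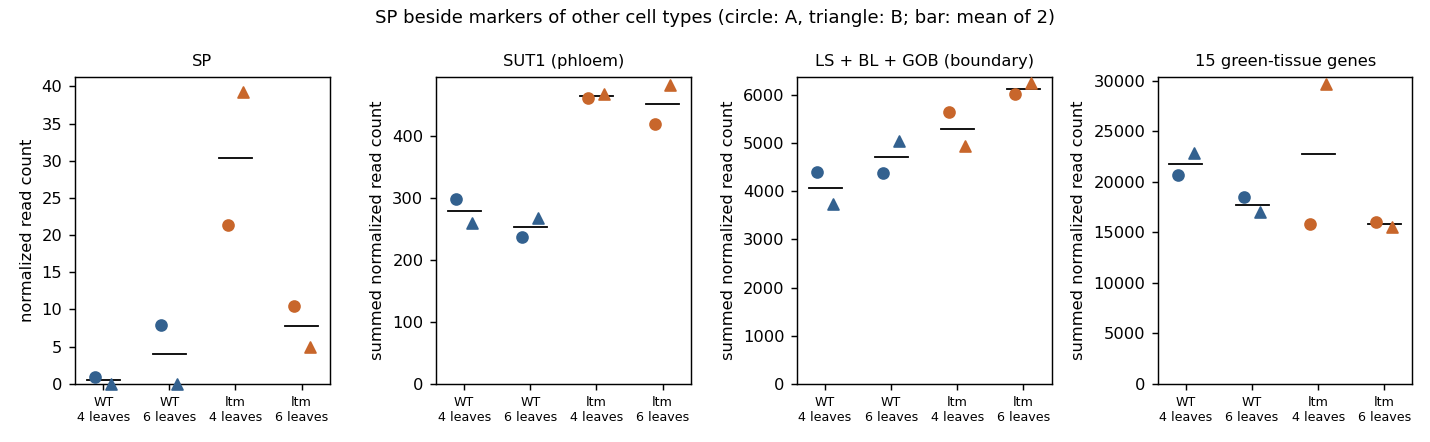
Normalized read counts (y axes, from 0) of SP, SUT1, the sum of LS, BL and GOB, and the sum of 15 green-tissue genes in the 4 groups (x axes); circles are A, triangles B, and the bar is the mean of 2. SUT1 lies between 420 and 483 in ltm and between 237 and 299 in WT, while the green-tissue sum is highest in ltm 4 leaves B, at 29670.

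The proteins that SP and SFT act through are encoded by genes that were abundant in these meristems. SPGB, the bZIP partner, stood at 4097 and 2150 in WT at 4 leaves, 4571 and 4948 in WT at 6 leaves, 3617 and 2085 in ltm at 4 leaves, and 3694 and 3822 in ltm at 6 leaves (A and B). Both 4 leaves B libraries were low, and within a stage the genotypes overlapped at 4 leaves. At 6 leaves both ltm libraries were below both WT libraries, as were 21.9% of tested genes. From 4 to 6 leaves in WT its log2 fold change was 0.68 ± 0.320 (adjusted p = 0.727 in limma), and 0.22 with the 4 leaves B libraries left out. Of 10 genes listed as 14-3-3 proteins, 1 was at 0 and 9 were tested. The one with the smallest p, Solyc12g010860, stood at 2378 ± 283 in WT at 4 leaves and 1759 ± 23.8 in WT at 6 leaves (-0.43 ± 0.161, adjusted p = 0.727 in limma). Solyc12g057110 had a log2 fold change of -0.32 ± 0.223 and Solyc02g063070 one of -0.21 ± 0.145 in the same comparison.

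Genes that act upstream of the family were also tested. GIGANTEA (GI), a clock-linked gene of the day-length pathway, stood at 231 ± 37.5 in WT at 4 leaves and 684 ± 182 in WT at 6 leaves (1.55 ± 0.582, adjusted p = 0.727 in limma). In ltm at 4 leaves it differed widely between libraries, at 766.5 in A and 166 in B. The phytochrome genes PHYB2 and PHYB1, which encode red-light receptors, stood at 670.0 ± 120 and 881 ± 96.5 in ltm at 6 leaves against 508 ± 65.5 and 719 ± 68.8 in WT (0.39 ± 0.159 and 0.29 ± 0.128, adjusted p = 0.755 and 0.777 in limma). COL1, a CONSTANS-like gene, had a log2 fold change of 0.49 ± 0.334 in that comparison.

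The whole pathway list of 35 genes was chosen with earlier results of these data known. Its counts and medians thus describe the list and give no independent support. Of the 35 genes, 34 were in the table, 25 were tested and 0 were called by limma in any of the 7 comparisons. At 6 leaves, ltm against WT, 2 of the 25 had an unadjusted p under 0.05 on the higher side and 7 on the lower side, beside 3.57% and 2.88% of all tested genes. All 7 lower ones were among the 9 tested genes listed as targets, whose median log2 fold change was -0.95 beside -0.0054 over all tested genes. At 4 leaves 0 were on the higher side and 2 on the lower, beside 1.59% and 1.31% of all tested genes. From 4 to 6 leaves 7 were higher and 1 lower in WT (3.12% and 2.92% of all tested genes), and 3 were higher and 0 lower in ltm (1.29% and 1.9%). In edgeR 0 pathway genes were called, beside 0% to 0.0365% of tested genes. DESeq2 called 3, namely STM3, MBP20 and Solyc05g056620, from 4 to 6 leaves in WT, at 6 leaves between ltm and WT, and between the genotypes as a mean of both stages, beside 0.0573%, 0.193% and 0.756% of tested genes. It called STM3 and MBP20 between the stages as a mean of both genotypes (0.276%), and none of the list from 4 to 6 leaves in ltm (0.0208%). STM3 was also called by limma between the genotypes over both stages once the library letter was a block (-0.74, adjusted p = 0.0310 in limma).

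The 4 targets with the smallest p values were highest in WT at 6 leaves. Each had its smallest p in a comparison with that group, so standing out there was partly built into the choice. SP stood at 7.97 and 0 in WT at 6 leaves, and was lowest in WT at 4 leaves, at 0.914 and 0. Solyc05g056620, a gene left without a name here, stood at 124 in A and 146 in B of WT at 6 leaves, and had at most 1 read in each of the other 6 libraries. Its log2 fold change for ltm against WT at 6 leaves was -6.61 ± 0.782 (adjusted p = 0.180 in limma), a value that depends on the pseudocount. Solyc05g056620 passed the filter only through the WT 6 leaves libraries, so its height in that group was built into its being tested. STM3, a MADS-box gene counted as a SOC1 homologue, stood at 2839 and 3775 in WT and 1682 and 1741 in ltm at 6 leaves, and at 1724 and 2064 in WT and 1247 and 1358 in ltm at 4 leaves (-0.94 ± 0.154 at 6 leaves, adjusted p = 0.425 in limma). MBP20 stood at 6.40 and 11.5 in WT and 3.05 and 1.01 in ltm at 4 leaves, and at 71.7 and 108.7 in WT and 19.9 and 11 in ltm at 6 leaves. From 4 to 6 leaves in WT its log2 fold change was 3.22 ± 0.568 (adjusted p = 0.727 in limma). FUL1, a further FRUITFULL-like gene, stood at 35.6 and 51.2 in WT at 4 leaves and at 134.4 and 141.6 in WT at 6 leaves (1.67 ± 0.338, adjusted p = 0.727 in limma), and between 37.0 and 68.1 in the 4 ltm libraries. Not every listed target had this pattern. Of the 9 tested ones, TMF alone was higher in ltm than in WT at 6 leaves (0.39 ± 0.137, adjusted p = 0.755 in limma). AN, too low to pass the filter, had 15 and 9 reads in ltm at 4 and 6 leaves, against 0 and 1 in WT. MBP10, also under the filter, had 2 and 1 reads in ltm, against 0 and 6 in WT. These genes share their libraries with SP, so their values are set side by side and no relation to SP was tested.

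**Figure D5:**
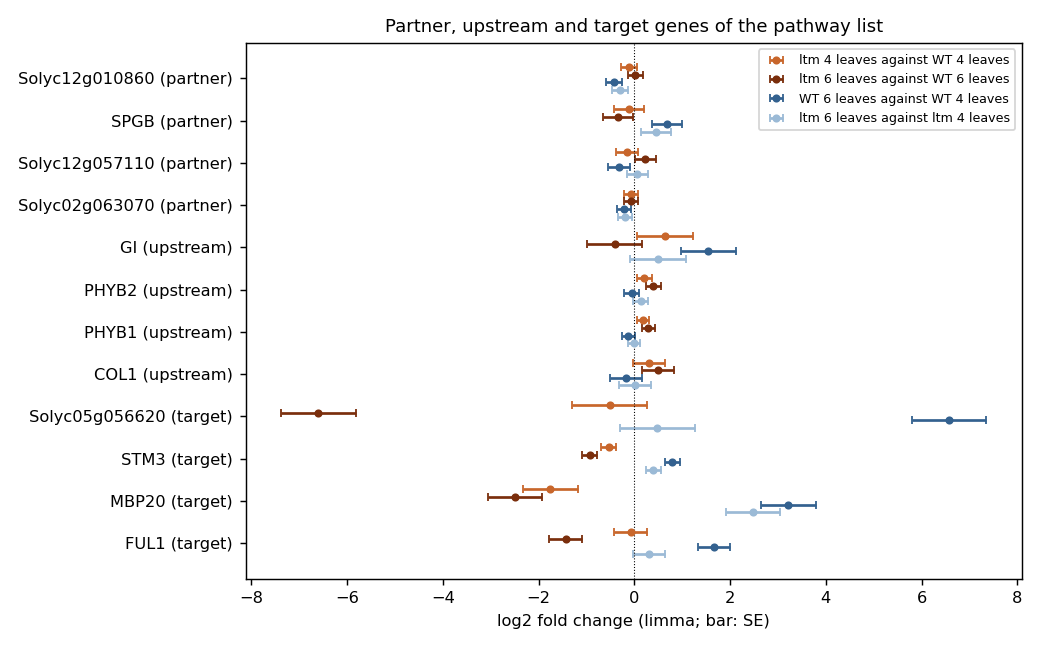
Log2 fold changes with SE bars (x axis, limma) of 12 partner, upstream and target genes (y axis) in the 4 comparisons of 2 groups, by colour. Of the partner and upstream genes GI lies farthest from 0, at 1.55 for 6 against 4 leaves in WT. Solyc05g056620, STM3, MBP20 and FUL1 are negative for ltm against WT at 6 leaves and positive for 6 against 4 leaves in WT.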

How the data were processed

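The 8 libraries were grouped by their titles, and columns were matched to them by the descriptions. The submitters' processing notes name TopHat2 2.0.10, HTSeq 0.6.1p1 and DESeq2 1.6.3. For the genome build, not given in the sources used here, no coordinates are printed. The deposited signal is a normalized read count, from which a size factor for each library could be read back: 100% of values were whole multiples of the value of 1 read (tolerance 1e-06), and size factors lay between 0.883 and 1.09. From these values, limma 3.58.1 (trend, under R 4.3.3) was run on log2(value + 1) with a mean per group over all 8 libraries, on genes that reached 10 in 2 or more libraries, with a threshold of 0.05 on adjusted p. The planned test for counts was not the main one, because the values were normalized. edgeR 4.0.16 and DESeq2 1.42.0 on the recovered reads were alternatives, as were other pseudocounts, filters and libraries left out. An exact permutation of genotype labels within stages was added after seeing the data. The scripts were tested on simulated data.

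Deviations of the A libraries from the means of their groups correlated across genes at 0.13 to 0.52 over the 6 pairs of groups, all above 0.1, which meets the criterion set for pairing. The labels themselves do not state a pairing, and the main fit and the permutation do not use it: the letter as a block is an alternative.

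The members and gene lists were chosen with earlier results of these data known. Symbols were compared with NCBI RefSeq (SLM_r2.1). A gene with the symbol, or with another symbol taken for it, exists there on the identifier's chromosome for all 5 members and 17 of 24 other named genes. The other symbols were CO1 for COL1, DOT for AN, T6 for TKN2, KN1 for TKN1 and LeSUT1 for SUT1. That table does not pair these identifiers with symbols, so the identifiers themselves were not checked. The identifiers of the 14-3-3 genes and the further CETS genes were listed from general knowledge of tomato. The names GI, STM3, FA, BL, GOB, TMF and TM3 had no such match, and TM3 was not analysed here. Named genes were the members, the 3 genes most like SP, and up to 4 pathway genes per role with the smallest unadjusted p in a comparison of 2 groups. FUL2, S, AN, MBP10, TMF and SUT1 were named beside them, all but SUT1 after their values were seen.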

Additional observations from a re-analysis of the deposited data

How the results depend on the processing

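SP was not called over all genes in any of the 7 comparisons under any alternative that gave an adjusted p. For ltm against WT its log2 fold change was positive in 18 of 18 alternatives at 4 leaves (2.65 with a pseudocount of 5 to 5.97 in DESeq2, adjusted p 0.320 to 1.0) and in 17 of 17 as a mean of both stages (1.64 to 3.74, adjusted p 0.131 to 0.842). The alternatives draw on the same 8 libraries, so a sign that held in all of them is no independent support. With the replicate block the adjusted p of SP at 4 leaves was 0.714 in limma, and apart from STM3 the block changed no call of a member or pathway gene. Some directions turned. With libraries left out in turn, the SP stage change in WT ran from -0.47 to 2.70, the genotype difference at 6 leaves from -0.12 to 3.05, and the stage change over both genotypes from -1.16 to 0.42; the last was 0.43 in edgeR with either scaling (0.429 and 0.431) and 0.55 in DESeq2. The cause was not tested.

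With libraries left out, the read ratio of SP ran from 1.35 to 16.3 between the WT stages, from 9.69 to 80.6 for ltm against WT at 4 leaves, from 0.976 to 2.46 at 6 leaves and from 5.32 to 55.3 over both stages, the last being 4.03 without both 4 leaves B libraries (added after seeing the data). That between the WT stages has no value without WT 6 leaves A. For SFT the lower bound ran from 1.52 to 6.97 between the WT stages and the upper bound from 0.143 to 0.629 for ltm against WT at 6 leaves, the first being 1.74 without both 4 leaves B libraries, and without WT 6 leaves B no ratio is left.

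The number of pathway genes called, 0 in limma, was 3 in DESeq2 in each of the WT stage comparison, the 6 leaves genotype comparison and the genotype mean, and 2 for the stage mean. It was 1 with a pseudocount of 5 in the first 3 of these, where 1, 2 and 9 of all genes were called. At 6 leaves it was also 1 without a filter, with a value of at least 1 in 2 libraries, or with only the groups compared (2, 2 and 4 of all genes), and for the genotype mean 1 without a filter or with the replicate block (9 and 20 of all genes). Depth limits every member, SP in WT included. A count of 0 in a library, as for SP in WT 4 leaves B and WT 6 leaves B, still allows 3 reads. The 1 SP read in WT 4 leaves A lay under the value of 3 reads in that library, 2.74, and gives no precise level.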
